A study of Mus musculus with 6 samples.

Results

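The B lineage genes described here are Pax5, Ighm, Vpreb1, Igll1, Cd79a, Cd79b, Ebf1, Blnk and Blk, 9 of the 8251 genes that the array's annotation names singly. They were chosen by name, with earlier results of these data known. Every probe set that the annotation gives to exactly 1 of them was used, 29 of 10833 in all. The samples were thymocytes labelled double negative (lacking CD4 and CD8), on 6 arrays: 3 of RAG1-deficient animals, 3 of RAG1/Ezh2 double mutants. By the labels both groups carried a RAG1 deficiency, and the double mutant was in addition mutant for Ezh2, the H3K27 methyltransferase of Polycomb repressive complex 2. The labels do not give the alleles, any Cre driver, the strain, the age, or whether each array stands for a mouse of its own, so a p-value speaks only to the spread among these samples, and that spread may be technical. The titles come in 3 styles, called numbered, Rag and Thy, with 1 array of each group in each; the RAG1-deficient titles of the numbered and Thy styles read WT, while their descriptions give RAG1-deficient mice. Values are listed below in that order, and a pair means the 2 arrays of a style.

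B cells begin as bone marrow progenitors in which the transcription factor Ebf1 and then Pax5 switch on the B cell program and close off other fates. Their first checkpoint is the pre-B cell receptor: the immunoglobulin mu heavy chain (Ighm) pairs with the surrogate light chain, made of Vpreb1 and Igll1, and signals through Cd79a and Cd79b, the kinase Blk and the adaptor Blnk. Without RAG1 no heavy chain gene can be assembled, but the unrearranged Igh locus can still be transcribed, in early T cell precursors as well as in B cell precursors, and Blk is also known from T cell precursors and gamma-delta T cells.

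RefSeq promoter entries (GRCm38.p6) existed for 6 of the 9 genes. The 4 below are shown because they belong to parts of the pre-B cell receptor pathway that are known targets of the early B cell factors. Each line gives the 250 bases before the start site, 5′ to 3′ on the gene's own strand. Capitals mark matches, on either strand, to CAGGTG (an E-box form bound by E proteins), CCCNNGGG (the core of the Ebf1 palindrome), AGGAAGT (an ETS factor core) or ATTTGCAT (the octamer). The motifs were chosen with these sequences in view, and none of the marked matches overlap.
Cd79a (chr7:24897247-24897496, plus strand): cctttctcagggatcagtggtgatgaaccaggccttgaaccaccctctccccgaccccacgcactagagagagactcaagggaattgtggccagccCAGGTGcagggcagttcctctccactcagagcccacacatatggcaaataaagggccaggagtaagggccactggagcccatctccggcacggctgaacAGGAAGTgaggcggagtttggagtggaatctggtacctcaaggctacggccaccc
Vpreb1 (chr16:16869256-16869505, minus strand): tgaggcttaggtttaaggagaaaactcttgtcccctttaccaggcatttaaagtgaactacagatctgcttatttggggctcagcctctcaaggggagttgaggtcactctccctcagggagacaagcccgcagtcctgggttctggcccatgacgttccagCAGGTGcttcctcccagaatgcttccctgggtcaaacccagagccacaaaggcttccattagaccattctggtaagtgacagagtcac
Igll1 (chr16:16863986-16864235, minus strand): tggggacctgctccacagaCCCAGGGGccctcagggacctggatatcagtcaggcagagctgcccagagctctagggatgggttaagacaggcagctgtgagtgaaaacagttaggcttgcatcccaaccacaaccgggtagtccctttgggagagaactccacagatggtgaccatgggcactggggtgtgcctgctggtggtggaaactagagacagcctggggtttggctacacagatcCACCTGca
Blnk (chr19:40994222-40994471, minus strand): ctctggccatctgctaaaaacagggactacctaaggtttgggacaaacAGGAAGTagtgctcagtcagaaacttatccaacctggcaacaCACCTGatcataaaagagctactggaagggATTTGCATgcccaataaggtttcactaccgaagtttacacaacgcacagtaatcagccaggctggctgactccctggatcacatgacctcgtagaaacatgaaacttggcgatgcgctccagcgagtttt

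CAGGTG stood in each of these 4 windows, and so in 4 of the 6 genes with an entry. Of all 32851 promoter windows of that length, 17.2% held it. As motifs and windows were picked with the sequences in view, these shares do not measure an enrichment. The exact letters of the Ebf1 core stood only in the Igll1 window (11.8% of all windows). The ETS core stood in the windows of Cd79a and Blnk (7.69%), and the octamer only in that of Blnk (1.60%). The windows of Pax5 and Ebf1 held no exact match to any of the 4 motifs. These are letter matches and do not show binding. Sites that depart from the exact letters go unmarked, so a window without a match, such as that of Cd79a for the Ebf1 core, may still hold a site. In the RefSeq gene order Igll1 and Vpreb1 are neighbours on chromosome 16, with 0 genes listed between them.

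Ezh2 gave 1435, 1641 and 1790 (scaled intensity) in the RAG1-deficient and 292, 651 and 724 in the double mutant arrays, without overlap; it fell in the paired limma fit (log2 difference -1.60 ± 0.20, paired SE, adjusted p = 0.0261), though it did not pass in the unpaired one (± 0.34, SE, adjusted p = 0.332). The labels do not say which part of Ezh2 was deleted, so this probe set is only a partial check of them. Rag1 (93683_at) read 5171 to 7264 on all 6 arrays, and as the deleted part of Rag1 is not given either, that signal does not check the RAG1 label. Of 12 T lineage markers on the array, 11 or 12 lay above the filter level of 86.5 on each array. RAG1-deficient replicate 1 (numbered) stood apart with Cd8a at 2973 and Cd8b1 at 8426, where no other array exceeded 81.3 and 164. Antigen-presenting cell genes, which B cells also express, summed to between 7396 and 33863 over 17 genes and were lowest on both Thy arrays. The erythroid marker Hba-a1 read 375 and 794 on the Thy arrays and 16352 to 30031 on the others. The myeloid markers S100a8 and S100a9 were highest on RAG1-deficient replicate 2, at 4809 and 3706, with at most 1524 and 1128 elsewhere. Their part in the results below was not tested.

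No B lineage gene passed the test between the groups. Of the 29 probe sets, 11 from 7 genes were bright enough to test (above 86.5 on at least 3 of the 6 arrays), and 0 of the 11 were called at an adjusted p under 0.05 in the unpaired limma fit, where 0.0393% of all 7642 tested probe sets were called. In the paired limma fit, with title style as a block, 0 of 11 were called against 0.667% of all. At an unadjusted p under 0.05 the counts were 0 in the unpaired and 1, Pax5, in the paired fit. Over all 7642 tested probe sets they were 244 and 1004. None of the 11 separated the groups without overlap, as 7.13% of all tested probe sets did. Of the 11, 10 had a log2 difference (double mutant minus RAG1-deficient) below 0, with a median of -0.28, while 50.4% of all tested probe sets lay below 0 with a median of -0.002. That leaning was not shared by all pairs: 7 of 11 lay below 0 in the numbered pair, 9 in the Rag pair and 5 in the Thy pair, with medians of -0.32, -0.40 and 0.05. Standard errors (SE) and 95% intervals below are those of the unpaired fit unless the paired fit is named with them. In bulk samples such as these, fewer cells of a type and less RNA per cell cannot be told apart.

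**Figure D1:**
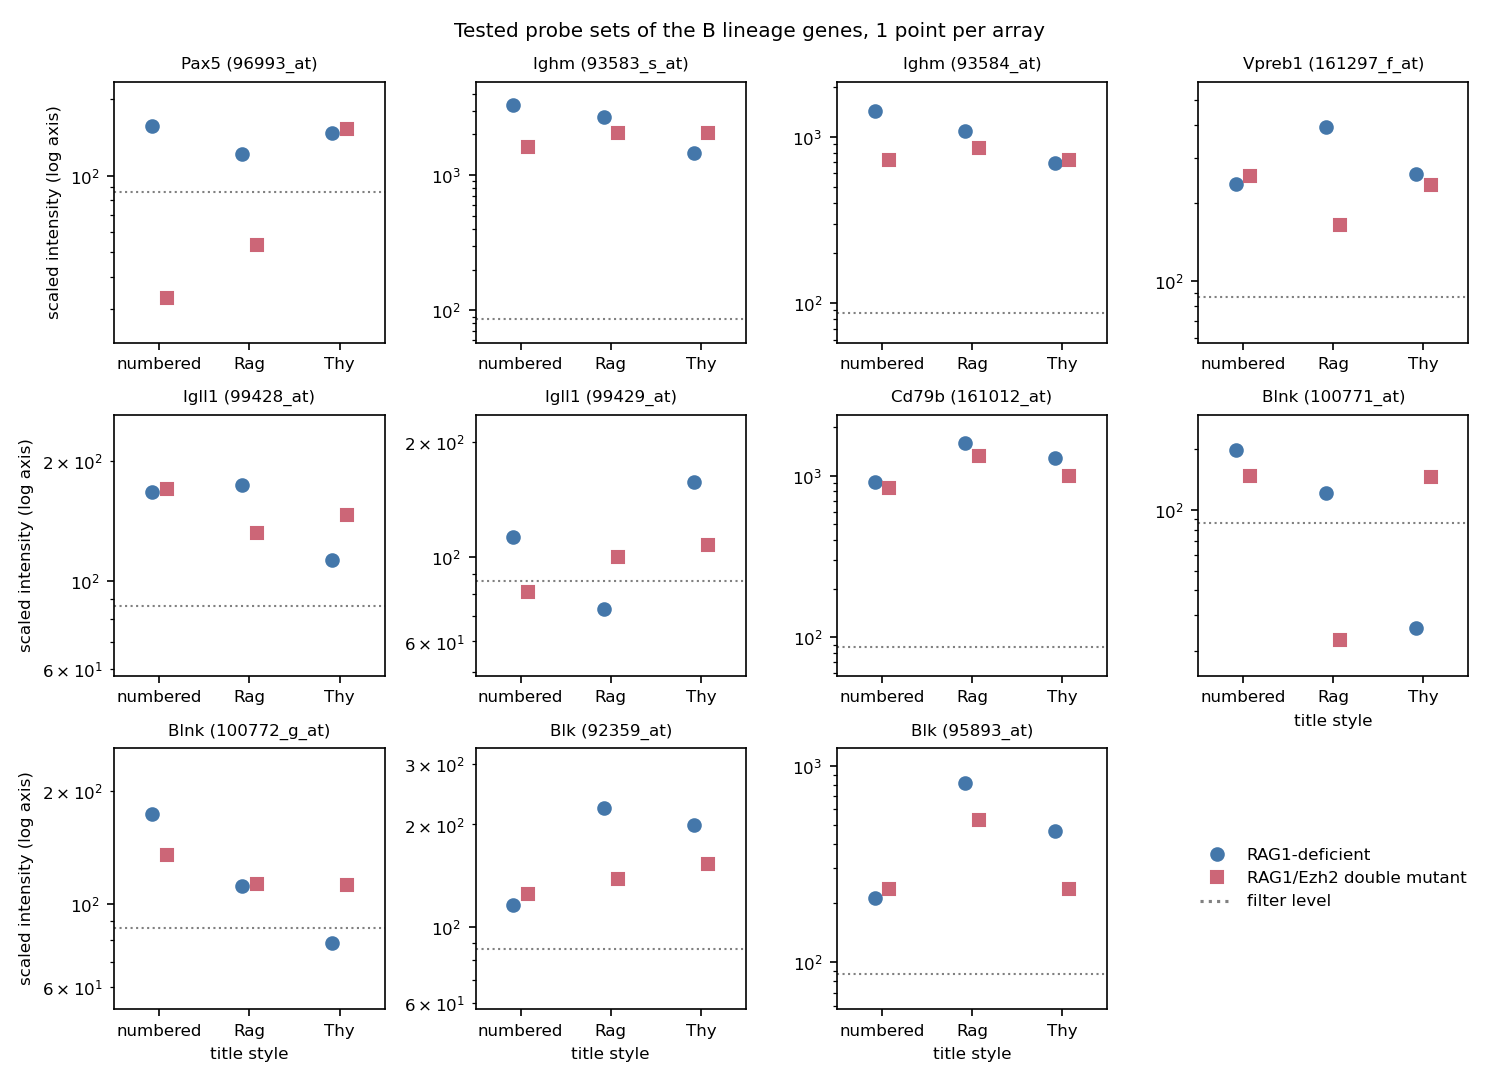
Scaled intensity (log axis) of the 11 tested probe sets of B lineage genes on each of the 6 arrays, by title style, with RAG1-deficient arrays as circles, double mutant arrays as squares and the filter level of 86.5 as a dotted line. The groups overlap in all 11 panels, and the 2 arrays of the Rag style are the brightest for Cd79b and for the brighter Blk probe set.

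Of the factors that define the lineage, Ebf1 lay under the filter level and Pax5 did not pass the test. Ebf1 was read by 1 probe set at 14.8, 4.9 and 5.4 in the RAG1-deficient and 20, 1.7 and 5.0 in the double mutant arrays. It lay under the filter level on all 6 arrays and was not tested. The 2 probe sets of Pax5 differed. One (102578_at) stayed between 15.1 and 22.6 on every array and was not tested. The other (96993_at) gave 156, 122 and 147 in the RAG1-deficient and 33.2, 53.5 and 153 in the double mutant arrays. The double mutant array of the Thy pair was thus as bright as the RAG1-deficient ones, and the other two lay under the filter level. Its log2 difference of -0.85 ± 0.48 (SE; 95% interval -1.94 to 0.25, n = 3 per group) was the lowest among the 11, and the pairs stood at -1.67 (numbered), -0.92 (Rag) and 0.05 (Thy). It did not pass in the unpaired (limma adjusted p = 0.99994) or the paired fit (± 0.36, paired SE; paired 95% interval -1.69 to -0.005; adjusted p = 0.377). It went from -0.50 without double mutant replicate 1 to -1.32 without double mutant replicate 3, and the difference rests on 1 of the 2 Pax5 probe sets.

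The mu heavy chain gene Ighm could be tested with 2 of its 16 probe sets, and neither passed. The brighter one (93583_s_at) gave 3285, 2700 and 1456 in the RAG1-deficient and 1603, 2036 and 2059 in the double mutant arrays. The second (93584_at) gave 1429, 1078 and 696 against 728, 849 and 725. Both were highest on RAG1-deficient replicate 1, the array with the CD8 signal, and lowest on RAG1-deficient replicate 3, so the RAG1-deficient group enclosed the double mutant values. The log2 differences were -0.31 ± 0.31 (SE; 95% interval -1.03 to 0.41) and -0.41 ± 0.28 (SE; 95% interval -1.06 to 0.23), and in the paired limma fit the adjusted p was 0.656 and 0.423. In the Thy pair both lay above 0, at 0.49 and 0.06. They were -0.07 and -0.18 without RAG1-deficient replicate 1, and -0.65 and -0.68 without RAG1-deficient replicate 3. The other 14 Ighm probe sets lay under the filter, with a median of 18.2 over their 84 values and a highest value of 113, and 3 of the 84 exceeded the filter level. A further 3 probe sets are annotated to Ighm together with other genes and were not used. Of the 16 probe sets 6 have names ending in _f_at or _s_at, which mark sets that can detect related transcripts, the brighter Ighm set among them.

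**Figure D2:**
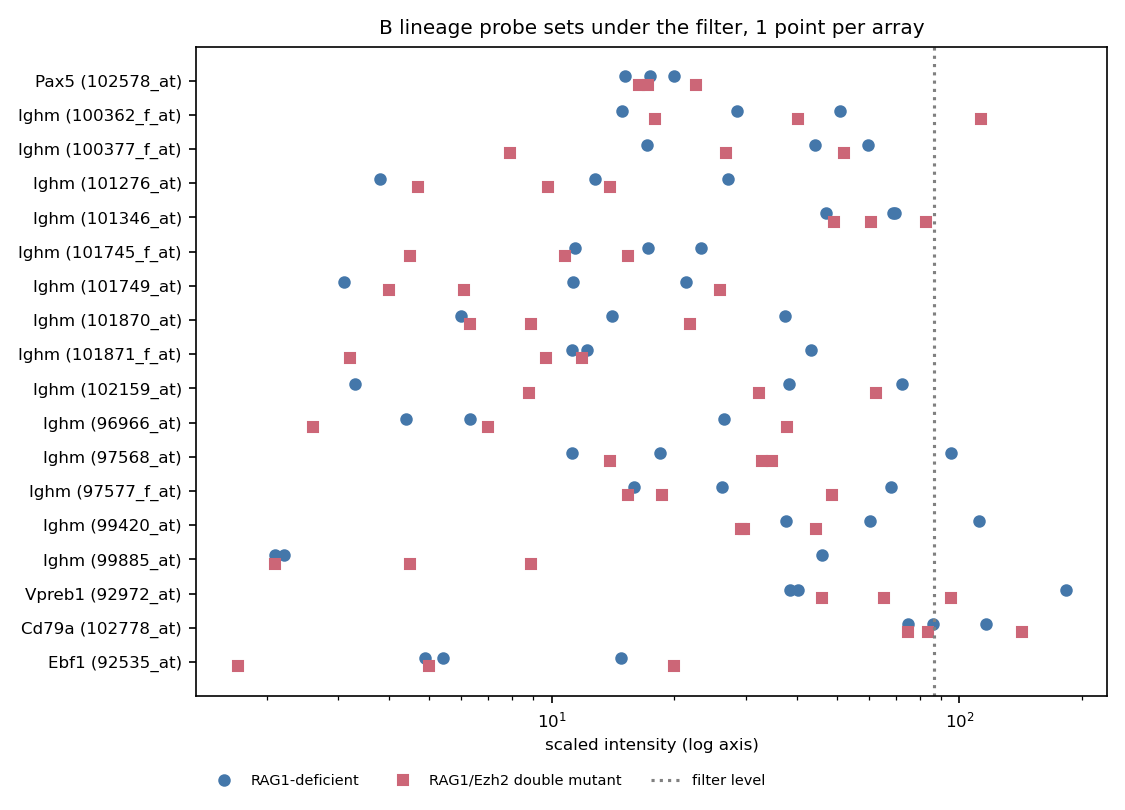
Scaled intensity (log axis) on each array of the 18 B lineage probe sets under the filter and therefore not tested, with RAG1-deficient arrays as circles and double mutant arrays as squares. Ebf1, 1 probe set of Pax5 and most of the 14 Ighm probe sets sit well under the dotted filter level of 86.5, whereas Cd79a straddles it.

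The surrogate light chain genes Vpreb1 and Igll1 gave overlapping values in the 2 groups, and none of their tested probe sets passed. Vpreb1 (161297_f_at) gave 238, 394 and 260 in the RAG1-deficient and 255, 164 and 235 in the double mutant arrays. The Rag pair held both the highest and the lowest of the 6 values, with a log2 difference of -1.15 there against 0.09 in the numbered and -0.13 in the Thy pair. Over all arrays it was -0.40 ± 0.29 (SE; 95% interval -1.07 to 0.27), and the paired limma fit gave an adjusted p of 0.579. In the paired fit it was -0.02 with the Rag pair left out, -0.64 with the numbered pair left out and -0.53 with the Thy pair left out. With single arrays left out of the unpaired fit it lay between -0.53 and -0.19. A dimmer Vpreb1 probe set (92972_at), not tested, was also highest on RAG1-deficient replicate 2, at 182, with 95.3 on the double mutant array of that pair and at most 65.2 elsewhere. The partner gene Igll1 was read by 2 probe sets. One (99428_at) gave 167, 174 and 113 against 170, 132 and 146, a log2 difference of -0.003 ± 0.31 (SE; 95% interval -0.70 to 0.70). The other (99429_at) gave 113, 73.1 and 158 against 81.1, 100.1 and 107, a difference of -0.17 ± 0.38 (SE; 95% interval -1.04 to 0.71). The 2 Igll1 sets ranked the arrays differently: RAG1-deficient replicate 2 was the highest of 6 for the first and the lowest for the second.

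Of Cd79b and Cd79a, whose proteins form the signalling pair of the receptor, Cd79b could be tested and did not pass. Cd79b stood at 920, 1592 and 1296 in the RAG1-deficient and 843, 1329 and 996 in the double mutant arrays. It was the only tested B lineage probe set whose double mutant value was the lower one in each of the 3 pairs, at -0.12, -0.26 and -0.37, as did 17.1% of all tested probe sets. The log2 difference was -0.25 ± 0.28 (SE; 95% interval -0.88 to 0.38) and passed in neither fit (limma adjusted p = 0.99994 unpaired and 0.441 paired); the paired interval ran from -0.54 to 0.04. With single arrays left out the difference lay between -0.46 and -0.07. Cd79a gave 86.4, 75 and 117 against 84.0, 75 and 142. It exceeded the filter level only on the 2 Thy arrays and was not tested, and its 2 arrays of the Rag pair had the same value. Levels of different probe sets cannot be set against each other, so these values do not give the ratio of the 2 chains.

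The adaptor Blnk and the Src family kinase Blk completed the set. Blnk (100771_at) gave 199, 122 and 26.0 in the RAG1-deficient and 149, 22.5 and 146 in the double mutant arrays. Single arrays of both groups fell far under the filter level, and the pairs went from -1.67 (Rag) to 1.78 (Thy), so the log2 difference of -0.08 had a 95% interval from -1.72 to 1.55. The second Blnk set (100772_g_at) was steadier, at 174, 112 and 78.5 against 136, 113 and 112, a difference of 0.04 ± 0.37 (SE) and the only one of the 11 above 0. Blk gave 212, 819 and 465 against 235, 527 and 235 with its brighter set (95893_at) and 116, 223 and 199 against 125, 139 and 153 with the other (92359_at). The log2 differences were -0.47 ± 0.49 (SE; 95% interval -1.58 to 0.65) and -0.28 ± 0.33 (SE; 95% interval -1.03 to 0.46), and the paired limma fit gave adjusted p of 0.418 and 0.660. Both Blk sets were lower in the double mutant in the Rag and Thy pairs and slightly higher in the numbered pair (0.13 and 0.09). The brighter set's difference was -0.03 without RAG1-deficient replicate 2, but -0.95 when RAG1-deficient replicate 1 was left out and -0.83 when double mutant replicate 2 was. That of the other set lay between -0.53 and -0.12 with single arrays left out.

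**Figure D3:**
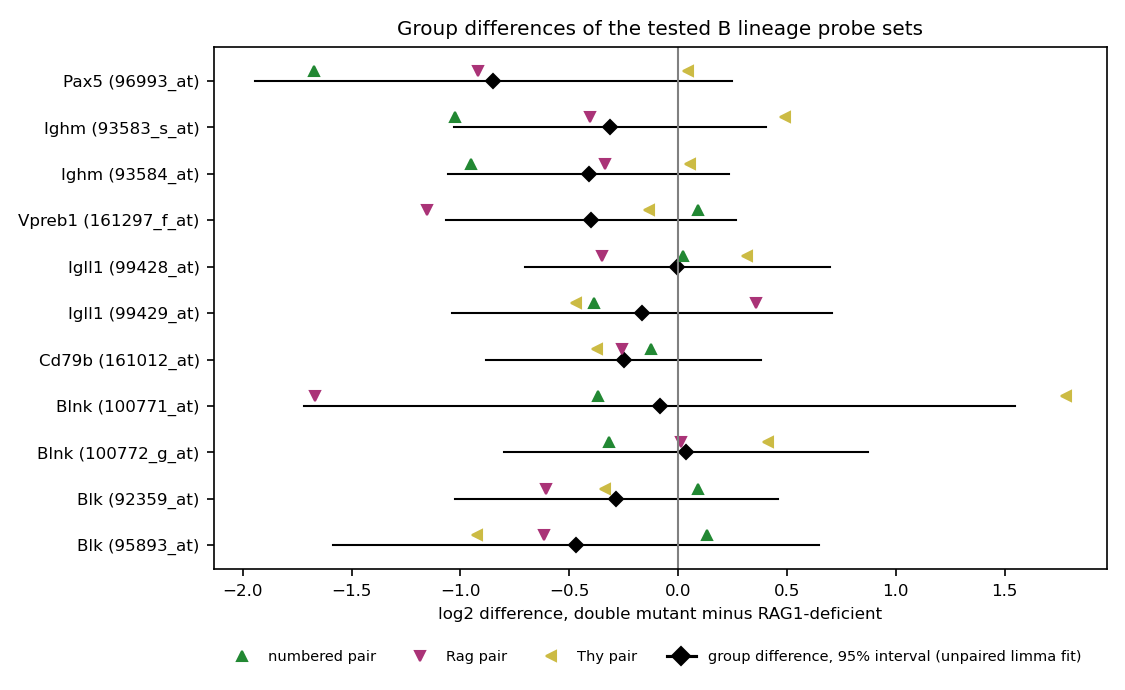
Log2 difference, double mutant minus RAG1-deficient, of the 11 tested B lineage probe sets, with diamonds for the group difference, lines for its 95% interval in the unpaired limma fit and coloured triangles for the 3 title-style pairs. Every interval includes 0, and only for Cd79b do all 3 pairs lie on the same side, between -0.37 and -0.12.

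A two-sided exact permutation test was also run on each probe set; with 3 against 3 arrays it cannot go below 0.1. It gave between 0.2 (Vpreb1) and 1.0 (Igll1) for the 11 probe sets. The 95% intervals give the range of ratios compatible with these arrays: for Cd79b anything from 0.543 to 1.30 times the RAG1-deficient level, for Ighm (93584_at) 0.481 to 1.18 times, and for Pax5 (96993_at) 0.260 to 1.19 times, all in the unpaired fit. The paired interval of Pax5, -1.69 to -0.005 on the log2 scale, did not include 0 before adjustment over all probe sets. The same held for 1004 of the 7642 tested probe sets.

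Cd79b and 1 of the 2 Blk probe sets differed between the title styles. Their mean intensities were 881 on the numbered, 1461 on the Rag and 1146 on the Thy arrays for Cd79b, and 223, 673 and 350.0 for the brighter Blk set. In the limma F test of title style within the paired fit, these were the 2 of 11 that differed (adjusted p = 0.0302 for Cd79b and 0.0186 for Blk); the other Blk set did not pass (adjusted p = 0.309). That is 18.2% of the B lineage probe sets, against 30.2% of all tested ones, so a difference between styles was not particular to them. This comparison was added after the values were seen. The Rag titles name T cells and not the double-negative stage, and the labels do not say what the styles stand for.

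Other genes of the B cell program likewise gave 0 calls in either fit. Among 26 further B cell identity and surface genes, 16 were on the array and 7 could be tested, with 6 of the 7 below 0 and a median log2 difference of -0.15. Cd22, an inhibitory receptor of B cells, the complement receptor gene Cr2 and the IgE receptor gene Fcer2a stayed under the filter level on all 6 arrays, at no more than 46.6, 14.6 and 42.6. Others of the list were brighter. Cd72 gave 347, 161 and 72.1 against 209, 115 and 125. Ly86 (124 to 385) and Ralgps2 (213 to 368) exceeded the filter level on all 6 arrays. Ms4a1, which encodes CD20, gave 175, 146 and 176 against 82.2, 170 and 260 with its brighter probe set (104173_at). Its other set (99446_at) stayed under the filter level on all 6 arrays, at no more than 79.7. The ETS factor gene Spib (93657_at), also active in early thymocytes and plasmacytoid dendritic cells, had the smallest unpaired p of this list, at 912, 1365 and 790 in the RAG1-deficient and 753, 424 and 300 in the double mutant arrays. Its groups did not overlap, but the log2 difference of -1.08 ± 0.25 (paired SE) did not pass (paired limma adjusted p = 0.146). The tetraspanin gene Cd37 showed -0.18 ± 0.21 (SE).

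Of 17 other immunoglobulin chain genes, 5 were on the array and 2 could be tested. Ighd, whose constant region lies beside that of Ighm, gave 195, 163 and 317 against 217, 155 and 236, a log2 difference of -0.11 ± 0.32 (SE). Jchain, the joining chain of secreted antibody, showed -0.32 ± 0.40 (SE). Among 16 tested transcription factor genes of B cells other than Pax5 and Ebf1, 8 lay above and 8 below 0, with a median of -0.04. The smallest unpaired p-values belonged to Stat5a, a mediator of interleukin 7 signals (0.42 ± 0.24, SE), and Tcf3, which encodes the E2A proteins (0.41 ± 0.31, SE), on the log2 scale. Of 20 tested genes of pre-B and B cell receptor signalling, many of them also used by the T cell receptor, 14 lay below 0, with a median of -0.09. Vav1 (97562_r_at) and the phosphatase gene Inpp5d (161678_at) had the smallest unpaired p, at -1.09 ± 0.50 (SE) and -0.76 ± 0.45 (SE), but brighter probe sets of both showed -0.17 and -0.04. Syk, the kinase that acts upstream of Blnk, stood at 1143, 1238 and 1030 against 905, 992 and 1140 (log2 difference -0.17).

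Of 12 tested early lymphoid genes that pro-B cells and T cell precursors share, 9 lay below 0, with a median of -0.15. The surface enzyme gene Bst1 gave 170, 388 and 595 in the RAG1-deficient and 116, 243 and 186 in the double mutant arrays, a log2 difference of -0.89 ± 0.25 (paired SE; paired limma adjusted p = 0.199). Rag1 (93683_at) showed -0.44 ± 0.10 (paired SE; paired limma adjusted p = 0.143). Of 4 tested plasma cell genes, 2 lay above and 2 below 0. The elongation factor gene Ell2 (103891_i_at) had the smallest unadjusted p of the related lists in the unpaired fit, though not in the paired one, at 120, 93.6 and 110 against 182, 377 and 385. Its groups did not overlap, and the log2 difference of 1.30 ± 0.28 (paired SE) did not pass (paired limma adjusted p = 0.119; unpaired 0.642). Creld2 showed 0.16 ± 0.20 (SE).

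**Figure D4:**
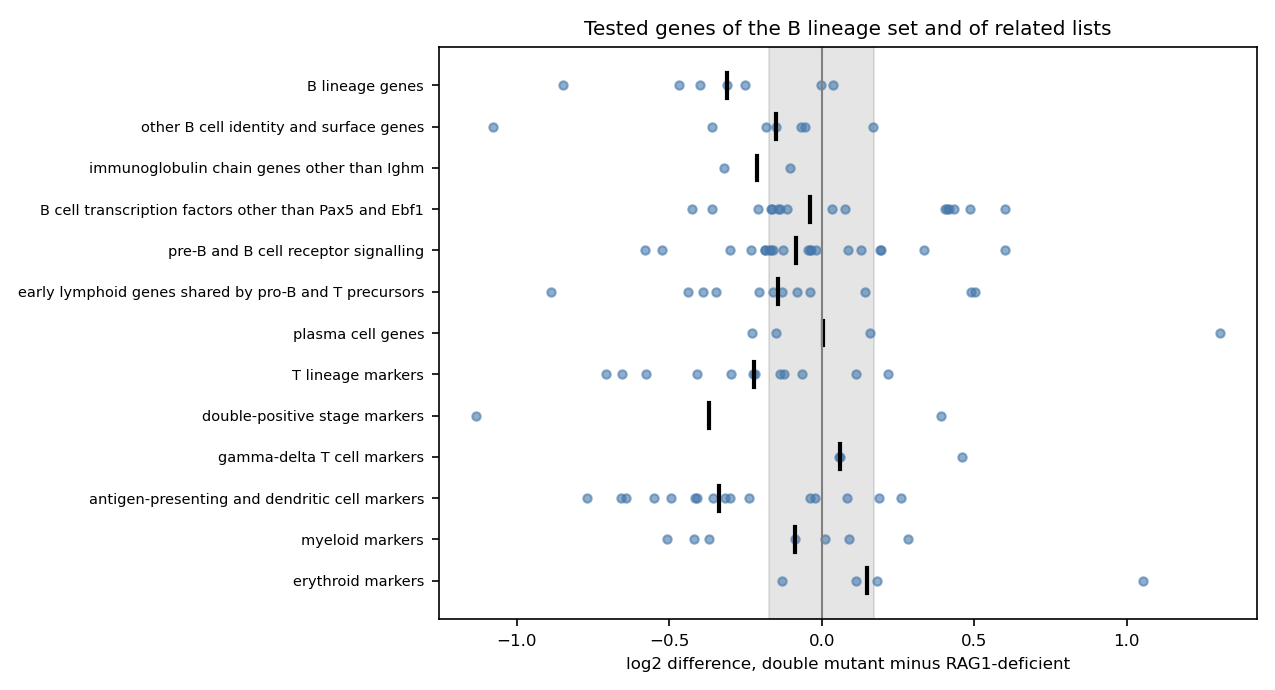
Log2 difference, double mutant minus RAG1-deficient, of the tested genes of the B lineage set and of 12 related lists (1 point per gene, its brightest probe set), with the median of each list as a black bar and the span between the quartiles of all tested probe sets, from -0.17 to 0.17, shaded grey. The B lineage median of -0.31 over 7 genes lies left of the shaded band, and so do those of the double-positive stage (-0.37, 2 genes), antigen-presenting cell (-0.34), T lineage (-0.22) and other immunoglobulin chain lists (-0.21, 2 genes).

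Marker lists of other cell types gave 0 calls in either fit as well. T lineage markers had a median log2 difference of -0.22 over 12 tested genes, with Ptcra at -0.66 ± 0.24 (SE) and Zap70 (93662_s_at) at -0.71 ± 0.42 (SE). Antigen-presenting and dendritic cell markers had -0.34 over 16, with H2-DMb1 at -0.77 ± 0.39 (SE) and Itgax at -0.36 ± 0.23 (SE). Gamma-delta T cell markers had 0.06 over 3 (Icos 0.46 ± 0.48, Sox13 0.05 ± 0.22, SE). RAG1 is also needed to assemble T cell receptor genes, and both groups are labelled RAG1-deficient. This list therefore does not measure gamma-delta T cells here. Myeloid markers had -0.09 over 7 (Cd14 -0.42 ± 0.28, Lyz2 -0.51 ± 0.35, SE), and erythroid markers 0.15 over 4 (Epor 1.05 ± 0.41, Klf1 0.18 ± 0.39, SE). The 2 tested double-positive stage genes, Cd4 and Cd6 (92203_s_at), had -1.13 ± 0.63 (SE) and 0.39 ± 0.27 (SE). A second tested Cd6 set (92204_at) went the other way, at -0.28 ± 0.40 (SE). The summed signal of 16 further B cell genes lay between 14254 and 18902 in the RAG1-deficient and between 13704 and 21387 in the double mutant arrays. Most of that sum came from Ly6d, which early lymphoid cells share, at 10899 to 19315.

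The mean of the 11 tested probe sets, each centred on its own mean, stood at 0.19, 0.33 and -0.09 on the RAG1-deficient and -0.22, -0.21 and -0.01 on the double mutant arrays (log2 units). RAG1-deficient replicates 1 and 2 were thus the highest, and the third replicates of both groups lay close together. The genes whose profile over the 6 arrays was most like this mean were Ap5s1 (Pearson r = 0.988), Hs1bp3 (0.969), Fah (0.954), Cebpd (0.946) and Dpep3 (0.940). With 6 arrays that share title styles, 16 tested probe sets outside the set reached 0.9, so these likenesses are a description of the arrays.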

How the data were processed

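Total RNA was measured on 6 single-colour arrays. The deposited values are linear intensities, 1 per probe set for 12488 probe sets; the software behind them is not given in the sources used here. Their 2%-trimmed means lay between 500.3 and 500.4, so each array had been scaled before deposit, and that scaling was kept. No detection calls were used; precision is limited by there being 3 arrays a group. Between 55.1% and 64.2% of the probe sets of an array exceeded the filter level.

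Genes were named from the platform's probe table, checked by Entrez number against RefSeq (GRCm38.p6), which matched 10839 probe sets and changed 0 symbols. The tested scale was log2(intensity + 23), the pseudocount being the 20th percentile of all values, which understates differences of dim probe sets. After 66 control probe sets were left out, those above 86.5 (the 40th percentile) on at least 3 arrays were tested (7642). The group comparison used limma 3.58.1 (R 4.3.3; lmFit, then eBayes with trend). P-values are two-sided, were adjusted by Benjamini-Hochberg across the whole tested set, and were called under 0.05. The fit was checked on simulated data with the same spread for every probe set, large changes only and no title style effect. That check does not cover differences as small as those of the B lineage genes. Permutation tests used scipy 1.17.1 and figures matplotlib 3.10.9.

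Replicate numbers follow accession order and equal the title style (1 numbered, 2 Rag, 3 Thy). Deviations from the group means correlated within a style at 0.570, 0.736 and 0.602, all over the limit of 0.1, so the paired fit uses title style as a replicate block; the pairing is read from the titles, as the labels name no shared litter or day. The members and gene lists were chosen with earlier results of these data known. Of each list the 2 genes with the smallest unpaired p were named, beside any that passed and genes named for their level. Cd22, Cr2, Fcer2a, Cd72, Ly86, Ralgps2, Ms4a1, Syk and Ly6d were added after their values were seen.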

Additional observations from a re-analysis of the deposited data

How the results depend on the processing

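Under all 16 alternatives 0 B lineage probe sets were called, also when all 29 were tested without the filter. The lowest adjusted p of any of the 11 was 0.248, for Ighm (93583_s_at) in the paired limma fit without the Thy pair. Their median log2 difference, -0.28, lay between -0.42 and -0.12. Of 172 recomputed single values 156 kept their sign. The other 16 changed sign. Igll1 (99428_at) reached 0.0185 with quantile scaling, lay between -0.174 and 0.0950 with 1 array left out, and was 0.169 when the paired fit lacked the Rag pair. Igll1 (99429_at) lay between -0.401 and 0.0543 with 1 array left out, the latter without RAG1-deficient replicate 3. Blnk (100771_at) lay between -0.71 and 0.55 with 1 array left out (0.381 and 0.0728 without RAG1-deficient replicates 1 and 2, 0.55 without double mutant replicate 2), and at 0.0578 and 0.707 when the paired fit lacked the numbered or the Rag pair. Blnk (100772_g_at) lay between -0.19 and 0.29 with 1 array left out, at -0.0384 without double mutant replicate 1, and at -0.152 in the paired fit without the Thy pair. Ighm (93583_s_at) was at 0.0449 in the paired fit without the numbered pair. The cause was not tested.

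Over all probe sets the count called higher was 3 and lower 0. It was 43 and 8 with the replicate block, 1 and 0 with the filter on all 6 arrays, 5 and 0 with quantile scaling, and 0 to 6 higher with 1 array left out. Dropping the numbered pair from the paired fit gave 12 and 2, dropping the Rag pair 127 and 64, and dropping the Thy pair 3 and 0. The related lists had 0 calls except for 6 when the paired fit lacked the Rag pair, which were S100a8, S100a9, Cd4, Spib, Zap70 and Ptcra. The replicate block changed no call of a B lineage gene. With 3 arrays a group, and many of these probe sets near the filter level, modest differences could not be resolved.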
